A study of Mus musculus with 3 samples.

Results

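Natural killer (NK) cells of primary 4T1 mammary tumors were picked from single-cell RNA-seq of sorted CD45+ leukocytes. A cell was taken when it had at least 1 unique molecular identifier (UMI, a counted mRNA molecule) of Ncr1, the gene of the NK receptor NKp46, and at least 1 UMI of Klrb1c, Klre1, Eomes or Klra7. It also had to lack Cd3e, a subunit of the T cell receptor complex, and to hold fewer than 10 UMIs of C1qa, C1qb and C1qc together, which mark macrophages. Barcodes were considered from 1500 UMIs and 300 genes upward, and up to 20% of UMIs from mitochondrial genes. The rule found 348 cells among 12472 kept cells.

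The tumors had grown for 14 days in the fourth mammary fat pad of female BALB/c mice, aged 6-8 weeks when 200000 tumor cells were injected. In the vehicle group, mice with luciferase-expressing 4T1-luc tumors received DPBS by gavage for 10 days from day 4. In the p38i group, mice with the same 4T1-luc tumors received LY2228820 (ralimetinib, an inhibitor of p38 kinases) at 30 mg/kg daily over the same 10 days, a dosing of the whole animal rather than of the tumor alone. In the p38KO group, mice carried p38a-KO-H9, a clone of 4T1-luc in which CRISPR-Cas9 had inactivated Mapk14, the gene of p38α. The labels name no treatment for these mice, and all NK cells in them came from a host with an intact Mapk14 gene. Each group was 1 library made from the pooled tumors of 3 mice. Mice therefore cannot be told apart within a library, no group has a replicate, and no test between groups was possible. In p38KO, a property of the clone, a difference in gavage and the loss of p38α cannot be told apart.

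NK cells are innate lymphocytes that kill stressed or transformed cells without prior priming. They release perforin, which opens the target membrane, and granzymes, serine proteases that start cell death once inside, and they secrete interferon-γ and chemokines that call in dendritic cells and T cells. A balance of activating receptors (NKp46, NKG2D, DNAM-1) and inhibitory receptors (many Ly49 proteins, CD94-NKG2A) sets their response. Inside tumors, TGF-β and related cues are known to push NK cells toward a tissue-resident form that carries adhesion molecules such as CD103 and CD49a.

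The depth of the members was similar in the vehicle and p38i libraries and somewhat greater in p38KO. Vehicle held 113 NK cells with 730458 UMIs in all, p38i 113 cells with 724468 UMIs, and p38KO 122 cells with 924004 UMIs. The median NK cell had 4775 UMIs in vehicle, 4912 in p38i and 5519.5 in p38KO. Median mitochondrial content was 2.53%, 2.55% and 3.18%, and among all kept cells it was 0.671%, 0.968% and 2.10%, so the p38KO library stood highest on both. No barcode of an NK cell occurred among the NK cells of another library.

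NK cells made up a small and similar part of the sorted leukocytes in the 3 tumors. Their share was 2.96% of 3820 kept cells in vehicle (95% Clopper-Pearson interval 2.44-3.55%), 2.36% of 4793 in p38i (1.95-2.83%) and 3.16% of 3859 in p38KO (2.63-3.76%). Each interval overlapped the other 2. They cover counting error only. Neutrophils numbered 1964, 2410 and 1641 of the kept cells and were the most numerous group scored here. With the rule applied after every cell had been reduced to 1500 UMIs at random, the shares were 2.12%, 1.5% and 2.02%.

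**Figure D1:**
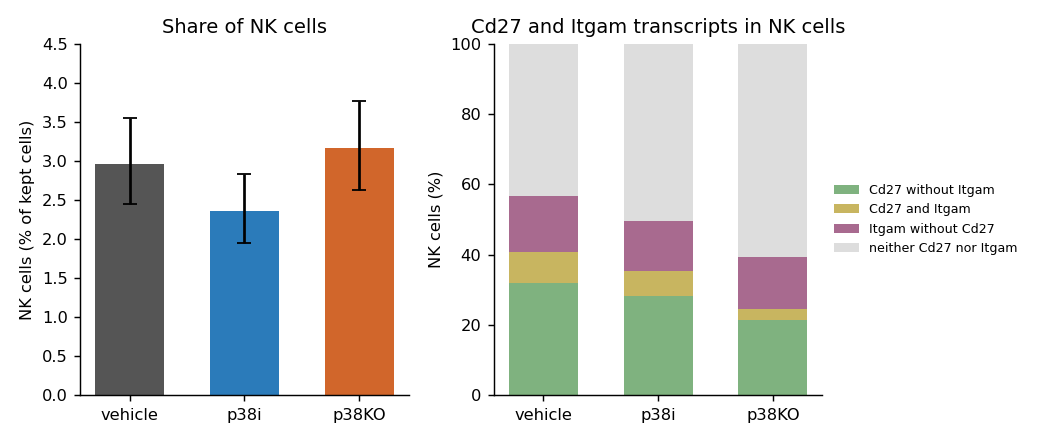
NK cells as a percentage of all kept CD45+ cells in the vehicle, p38i and p38KO libraries (left, bars with 95% Clopper-Pearson intervals, counting error only) and NK cells divided by detection of Cd27 and Itgam at full depth (right, stacked percentages). The shares lie between 2.36% and 3.16%, and cells with neither transcript make up 43.4%, 50.4% and 60.7%.

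Ncr1 was detected in 145 kept cells of vehicle, 137 of p38i and 180 of p38KO, and the cells set aside mostly lacked the second marker (19, 15 and 43 cells) or held Cd3e (16, 12 and 18 cells). Inside the rule, 14, 13 and 15 cells rested on a single Ncr1 UMI, against a median of 6, 5 and 8 Ncr1 UMIs. The highest C1q sum inside was 7 UMIs, in p38KO, and the lowest among cells left out for that reason alone was 16, in p38i. Levels below are given as CPM, that is the UMIs of a gene summed over the NK cells of a library and scaled to a total of 1000000 UMIs, with an exact 95% Poisson interval in brackets or parentheses. Ncr1 itself stood at 1446, 1057 and 1195 CPM, Klrb1c at 231, 174 and 190 CPM and Eomes, the T-box factor of the NK lineage, at 261, 248 and 250 CPM. These values chose the cells and are no finding.

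The label was checked against CD8 T cells on genes that the rule had not used. Type 1 innate lymphoid cells were not told apart from NK cells. Eomes, which the rule does not require, was detected at full depth in 67.3%, 75.2% and 71.3% of the members. CD8 T cells of the same libraries served as the comparison (Cd3e together with Cd8a or Cd8b1, no Cd4 and no Ncr1), with 286 cells in vehicle, 259 in p38i and 164 in p38KO and median depths of 6212.5, 5431 and 5561.5 UMIs. Among 4852 genes with at least 50 UMIs, NK cells were higher by at least 1 on the log2 scale in all 3 libraries for 86 genes (1.77%) and lower for 85 (1.75%). Since Cd3e divides these populations by construction, the genes describe the cells and were not tested. The 15 ranked highest held the NK receptors Klrb1a, Klrb1f, Klra3 and Klra9, the granule genes Gzmc, Gzma and Serpinb9b, and Car2, Atp1b1, Sulf2, Scimp, Itga2, Tcf4 and Pecam1. They also held Tyrobp, the DAP12 adaptor through which activating NK receptors signal. Klrb1f stood at 277, 232 and 263 CPM in NK cells of vehicle, p38i and p38KO against 7.47, 8.62 and 4.77 CPM in CD8 T cells. Tyrobp stood at 1978, 2062 and 2076 CPM in NK cells against 122, 160 and 112 CPM. Itga2, the integrin CD49b by which mouse NK cells are often sorted, stood at 69.8, 66.3 and 59.5 CPM against 1.87, 3.08 and 7.64 CPM.

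Among the lower genes were the T cell receptor and its partners. Trac, the α chain constant gene, stood at 10.9, 12.4 and 6.49 CPM in NK cells against 841, 827 and 728 CPM in CD8 T cells. Cd3g stood at 60.2, 53.8 and 50.9 CPM against 1638, 1654 and 1860 CPM, and Bcl11b, which fixes T cell identity, at 6.85, 5.52 and 6.49 CPM against 193, 198 and 236 CPM. Pdcd1, which encodes the checkpoint receptor PD-1, was near 0 in NK cells (4.11, 0 and 3.25 CPM) and stood at 274, 288 and 120 CPM in CD8 T cells. Transcripts of Trdc, the T cell receptor δ constant gene, were counted in 50, 52 and 49 NK cells. A UMI of Cd3d or Cd3g was present in 18, 13 and 19 NK cells, and of Cd8a or Cd8b1 in 2, 0 and 0.

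**Figure D2:**
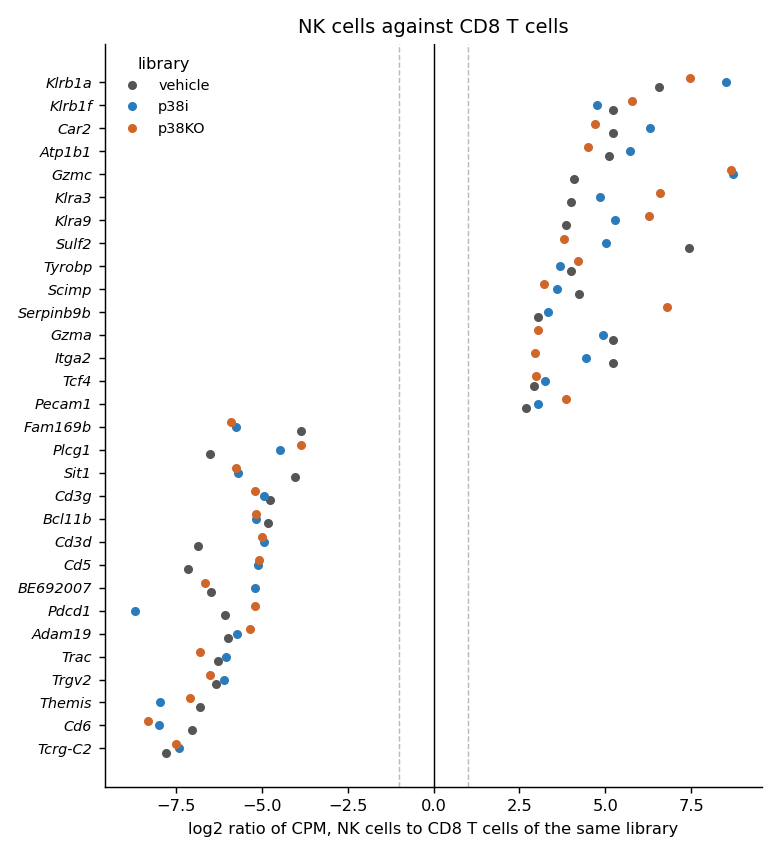
Log2 ratio of CPM between NK cells and CD8 T cells of the same library (x axis) for 30 genes (y axis), each point a library, dashed lines at -1 and 1; 0.5 stands in for a count of 0. NK receptors and granule genes such as Klrb1f and Gzma lie to the right in all 3 libraries, and T cell genes such as Trac and Cd3g to the left.

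Markers of other cells were carried at low levels, with the neutrophil list differing most between libraries. The 12 neutrophil markers summed to 660, 1482 and 1695 CPM in the NK cells of vehicle, p38i and p38KO, against 216526, 218696 and 177109 CPM in the neutrophils of those libraries. S100a9 was the most abundant, at 267, 697 and 755 CPM. A single cell held 50.4% of the S100a8 and S100a9 UMIs in p38i and 42.1% in p38KO, against 17.3% in vehicle. Of the neutrophil markers 3 of 5 measured were higher in p38i than in vehicle by at least 1 on the log2 scale, 1 was lower and the median was 1.38, and 3 of 6 were higher in p38KO, with a median of 1.18. Over all measured genes 0.921% were higher and 1.5% lower in p38i, and 1.44% and 1.66% in p38KO. Without 6, 7 and 8 cells set apart as likely doublets (over 20000 UMIs, or over 1% of UMIs from 8 myeloid genes) the medians of the neutrophil markers were -0.17 and -1.37. The 8 genes are S100a8, S100a9, Csf3r, Lyz2, Apoe, C1qa, C1qb and C1qc. Since S100a8, S100a9 and Csf3r are themselves on the neutrophil list, this filter lowers the medians by construction and decides nothing about their source. The T cell list of 15 genes summed to 1525, 1136 and 1002 CPM, most of it Trbc1 (813, 618 and 509 CPM), with Cd8b1 and Cd40lg at 0 in every library. The dendritic cell list was led by Cd74 and summed to 602, 770 and 425 CPM, with Xcr1, Fscn1 and Ccl22 at 0 throughout. The monocyte and macrophage list was led by Lgals3 and summed to 2884, 2438 and 3439 CPM, and Adgre1, the F4/80 antigen of macrophages, stood at 0, 0 and 2.16 CPM. Il23r, Il17a, Il22, Il13 and Il5, of the group 2 and 3 innate lymphoid list, were at 0 in all 3 libraries. The B cell list, nearly all Ighm, summed to 79.4, 75.9 and 120.1 CPM, the mast cell and basophil list to 94.5, 84.2 and 173 CPM, and the tumor, stroma and red cell list, nearly all Pecam1, which NK cells held above CD8 T cells in every library, to 131, 163 and 173 CPM. The part of these other cells in the results was not tested, and genes held by neutrophils at over 4 times the NK level were not ranked among the named ones.

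The share of cells with a transcript depends on depth, so each NK cell was also reduced to 1500 UMIs, the lowest depth the rule allows, before transcripts were scored. Of 17 states scored in this way, 13 lay above the neutrophils of the same library in all 3 tumors, among them Eomes, whose excess the rule itself brings about. Neutrophils, with median depths of 2522.5, 2270.5 and 2204 UMIs, should lack most of these genes and then give the level of free RNA, but they express Itgam and Ccl3 themselves. Cytotoxic transcripts were widespread. Gzma was detected in 72.6% of NK cells in vehicle, 77.9% in p38i and 61.5% in p38KO (neutrophils 0.458%, 0.373% and 0.975%), and at full depth in 73.5%, 83.2% and 67.2%. Prf1, perforin, was detected in 62.8%, 64.6% and 51.6% after thinning (neutrophils 0.204%, 0.166% and 0.183%) and in 89.4%, 84.1% and 86.1% at full depth. Gzma, Gzmb and Prf1 occurred together at full depth in 68 of 113, 75 of 113 and 62 of 122 cells.

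Some transcripts of the resident and the less mature form were found in different shares of cells. Itga1, CD49a, was detected after thinning in 15% of NK cells in vehicle (95% interval 9.01-23%), 9.73% in p38i (4.96-16.8%) and 30.3% in p38KO (22.3-39.3%), and in 28.3%, 31.9% and 50.8% at full depth. The p38KO interval lay above that of p38i and met that of vehicle. The neutrophil share of Itga1 was 0.0509%, 0.373% and 0.244%. Xcl1, a chemokine that attracts cross-presenting dendritic cells, was detected in 32.7% (24.2-42.2%), 22.1% (14.9-30.9%) and 44.3% (35.3-53.5%) after thinning. Its intervals did not overlap between p38i and p38KO, while vehicle overlapped both. Cd27, carried by less mature NK cells, was detected in 14.2%, 14.2% and 4.92% after thinning (neutrophils 1.17%, 1.08% and 0.792%) and in 40.7%, 35.4% and 24.6% at full depth. Its thinned intervals overlapped between all libraries, as did those of Klrg1, a receptor of mature NK cells, at 11.5%, 4.42% and 10.7%. Itgam (15.9%, 8.85% and 13.1%) and Ccl3 (12.4%, 11.5% and 8.20%) lay below the neutrophil share (33.9%, 37.3% and 34.6% for Itgam, 33.1%, 30.4% and 34.7% for Ccl3), so neutrophils give no background for them and free RNA was not tested. For Cd69 and Il7r the interval of at least 1 library reached the neutrophil share. Mki67 or Top2a, genes of dividing cells, were detected in 5.31%, 7.96% and 9.84% after thinning and 19.5%, 21.2% and 21.3% at full depth, with overlapping intervals.

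**Figure D3:**
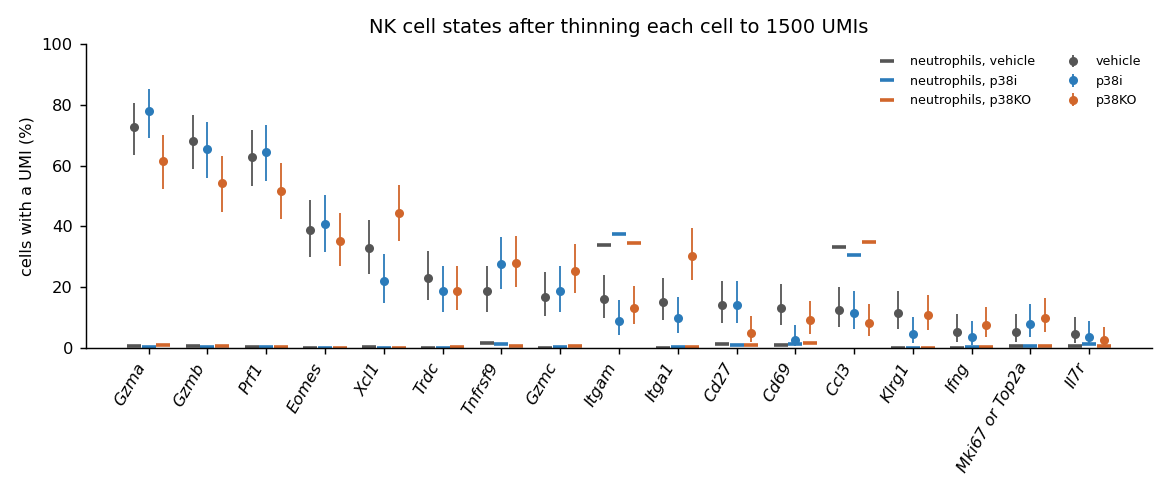
Percentage of cells with at least 1 UMI of each transcript after every cell was reduced to 1500 UMIs, for NK cells (points with 95% Clopper-Pearson intervals) and neutrophils (dashes) of vehicle, p38i and p38KO. Gzma, Gzmb and Prf1 lie highest, Itga1 reaches 30.3% in p38KO, and Itgam and Ccl3 lie under their neutrophil dashes.

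Between p38i and vehicle, more NK transcripts were lower than higher, by a margin that varied with the processing. A gene counted as different when its log2 ratio of CPM reached 1 in size, that is 2-fold, with at least 50 UMIs over both libraries. Of 4125 genes measured, 38 were higher in p38i (0.921%) and 62 lower (1.5%), and the median log2 ratio of all measured genes was -0.05. With median-ratio scaling 47 were higher and 53 lower, from at least 20 UMIs 204 and 219, from at least 100 UMIs 13 and 25, and without likely doublets 31 and 70. These shares count genes past a fold and carry no replicate check. Without likely doublets 14 of the 38 higher and 49 of the 62 lower genes were still called, and with the rule applied after thinning 16 and 25. The lower genes were led by Rgs1, Zfp36l2, Tnfaip3, Dusp2 and Btg2, brakes on signaling, mRNA stability and division, and the higher genes by cell cycle transcripts and granzymes of the Gzmd to Gzmg group. The lower genes were not particular to NK cells. Each of the 10 ranked lower genes was also lower in CD8 T cells of p38i than of vehicle. There the log2 ratio was -1.45 for Zfp36l2, -1.16 for Dusp2, -0.88 for Tnfaip3 and -0.74 for Btg2.

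Rgs1, a regulator that dampens chemokine receptor signals (chr1:144242296-144249242, GRCm38), stood at 694 CPM in NK cells of vehicle (635-757), 157 CPM in p38i (130-189) and 124 CPM in p38KO (103-149). It was detected in 76 of 113, 40 of 113 and 43 of 122 cells, so vehicle was high and the p38i and p38KO intervals overlapped. The log2 ratio was -2.14 in p38i (-2.45 to -1.85, exact interval of the counts) and -2.48 in p38KO (-2.78 to -2.18), each against the same vehicle library. In CD8 T cells the log2 ratios of Rgs1 were -1.59 and -1.31.

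Zfp36l2, an RNA-binding protein that hastens mRNA decay (chr17:84183931-84187947), stood at 910 CPM (842-982), 275 CPM (238-316) and 337 CPM (300-376) in vehicle, p38i and p38KO. Vehicle was again high, with 109 of 113 cells positive against 81 of 113 and 96 of 122, and the log2 ratios to vehicle were -1.73 in p38i and -1.44 in p38KO. The median NK cell held 10.8 Zfp36l2 UMIs per 10000 in vehicle, 2.42 in p38i and 2.87 in p38KO, so the difference was not carried by a few cells. Neutrophils of the same libraries held Zfp36l2 at 913, 620 and 727 CPM and Btg2 at 736, 527 and 936 CPM. Tnfaip3, the A20 brake on NF-κB, stood at 129, 34.5 and 39.0 CPM, with log2 ratios to vehicle of -1.90 and -1.72. Btg2, an antiproliferative gene, stood at 448, 160 and 211 CPM, with log2 ratios of -1.48 and -1.08. Tsc22d3, the glucocorticoid-induced GILZ, stood at 163, 59.4 and 21.6 CPM, with log2 ratios of -1.46 and -2.91. Genes with less familiar roles in NK cells were also highest in vehicle. P2ry10, a lysophospholipid receptor, stood at 159, 53.8 and 55.2 CPM, Nabp1, a DNA-binding protein, at 283, 116 and 137 CPM, and Vps37b, of the ESCRT sorting machinery, at 613, 297 and 215 CPM. The linker histone Hist1h1c stood at 97.2, 31.7 and 28.1 CPM and Hist1h1e at 127, 84.2 and 36.8 CPM. Since vehicle is shared by both comparisons, values low in p38i and in p38KO are not independent of each other.

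Other genes passed the fold in p38i and fell short of it in p38KO. Dusp2, a phosphatase that switches off MAP kinases, stood at 531 CPM in vehicle (480-587), 186 CPM in p38i (156-221) and 412 CPM in p38KO (372-456). Its log2 ratio was -1.51 for p38i against vehicle, -0.37 for p38KO against vehicle and 1.15 for p38KO against p38i. Ly6c2, a surface antigen of matured and memory lymphocytes, stood at 424, 166 and 452 CPM, with log2 ratios of -1.36 and 0.09 to vehicle, the former -0.87 as a mean over cells. Cd69, an early activation and retention molecule, stood at 91.7, 31.7 and 76.8 CPM, with log2 ratios of -1.53 and -0.26. Hopx, a homeodomain cofactor of effector lymphocytes, stood at 229, 96.6 and 301 CPM and gave -1.24 and 0.40. Whether the p38i and p38KO effects differ could not be tested with 1 library each.

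The immediate-early and stress list held 6 genes lower in p38i among 23 measured, none higher, with a median log2 ratio of -0.19. Over all measured genes 1.5% were lower and 0.921% higher, with a median of -0.05. The 6 lower genes of the list were Fos, Jun, Dusp1, Dusp2, Zfp36l2 and Btg2. Jun, a subunit of the AP-1 factor, stood at 283, 119 and 145 CPM in vehicle, p38i and p38KO, and Fos, its partner, at 86.2, 22.1 and 43.3 CPM. For Fos, Jun and Dusp1 the neutrophils of the same libraries held higher levels (Jun 693, 487 and 627 CPM, Fos 825, 502 and 689 CPM, Dusp1 2166, 687 and 1474 CPM). In p38KO 3 of 24 measured genes of this list were lower than vehicle (Zfp36l1, Zfp36l2 and Btg2), none was higher, and the median was -0.10. Among all genes measured in p38KO against vehicle 1.66% were lower and 1.44% higher, with a median of -0.01.

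The measured kinases of the p38 pathway did not pass the fold, and some phosphatases and RNA-binding proteins on the same list did. Mapk14 stood at 50.7, 42.8 and 39.0 CPM in NK cells of vehicle, p38i and p38KO, with overlapping intervals, and the host gene is intact in all groups. Mapkapk2, the MK2 kinase that p38 activates, stood at 118, 126 and 99.6 CPM. Of the pathway list, 4 of 16 measured genes were lower in p38i (Dusp1, Dusp2, Dusp5 and Zfp36l2), none higher, with a median of -0.16, where 1.5% of all measured genes were lower. In p38KO 3 of 18 were lower (Dusp5, Zfp36l1 and Zfp36l2), none higher, with a median of -0.28, where 1.66% of all measured genes were lower. The members that differed were feedback phosphatases and RNA-decay factors. The whole list summed to 3249 CPM (3119-3382), 2054 CPM (1951-2161) and 2118 CPM (2025-2214), so vehicle was high. Abundant genes weigh most in this sum, which includes Zfp36l2 at 910, 275 and 337 CPM and Dusp2 at 531, 186 and 412 CPM. It is therefore no separate result for the other genes of the list. Dusp5, which acts on ERK, stood at 225, 110 and 99.6 CPM.

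**Figure D4:**
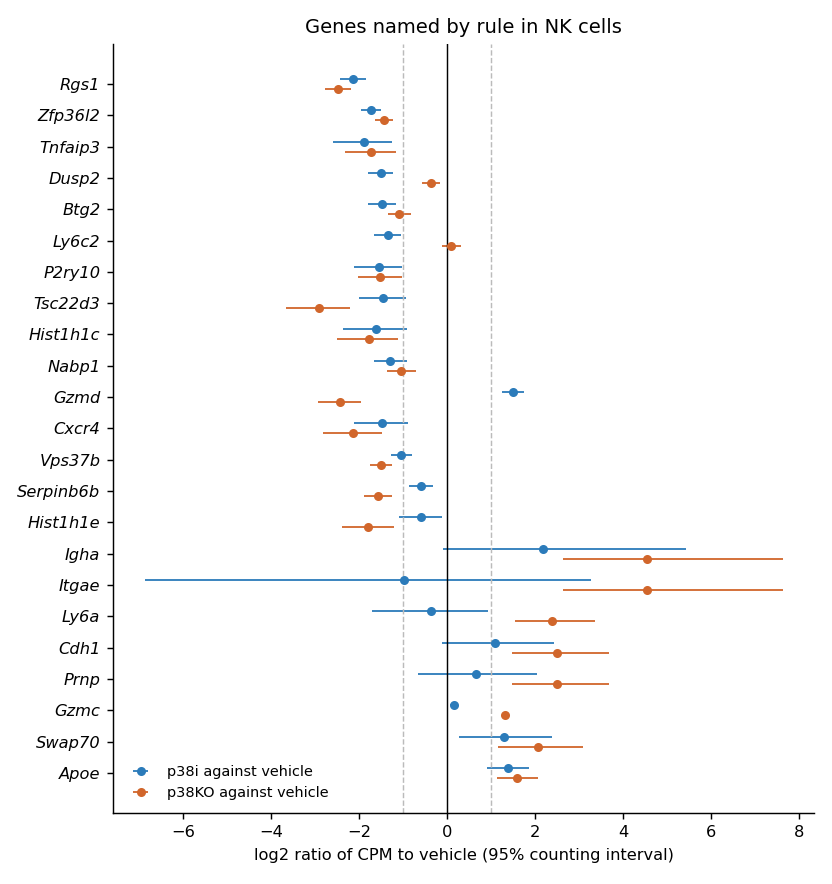
Log2 ratio of CPM to vehicle in NK cells for p38i and p38KO, for genes named as lower in p38i or as lower or higher in p38KO, without Gzme, Mcpt1 and Mcpt2, which had 0 UMIs in a library. Bars are exact 95% intervals of the counts, which cover counting error only, and both comparisons share the vehicle library. Rgs1 lies at -2.14 and -2.48 and Gzmd at 1.49 and -2.43.

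Some cell cycle genes were more abundant in p38i, in few cells. Mki67 stood at 21.9 CPM in vehicle (12.5-35.6), 109 CPM in p38i (86.3-136) and 35.7 CPM in p38KO (24.6-50.2), detected in 7, 11 and 11 cells. Pclaf, a partner of the replication clamp, stood at 26.0, 115 and 71.4 CPM in 7, 9 and 6 cells. The levels of Mki67 and Pclaf were thus carried by at most 11 cells in each library, while Top2a was found in 18, 19 and 20 cells. Of 19 measured cell cycle genes 4 were higher in p38i (Mki67, Top2a, Pclaf and Stmn1), 1 was lower (Mcm2) and the median was 0.57. In p38KO 1 of 18 was higher than vehicle (Pclaf), none lower, with a median of 0.24. The shares over all measured genes were 0.921% higher and 1.5% lower in p38i, and 1.44% and 1.66% in p38KO. With cells that held any Cd3d or Cd3g left out, Mki67, Pclaf, Hist1h1b and Top2a no longer reached 1 in p38i. Nfkbie, an inhibitor of NF-κB, was the only gene among the 10 named as higher in p38i that reached 1 under every alternative tried, at 17.8, 52.5 and 28.1 CPM.

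Against vehicle, p38KO NK cells were higher in 65 of 4527 measured genes (1.44%) and lower in 75 (1.66%), with a median log2 ratio of -0.01. The ranked higher genes were Mcpt2, Mcpt1, Igha, Itgae, Ly6a, Cdh1, Prnp, Gzmc, Swap70 and Apoe, a mix of mast cell proteases, an immunoglobulin, adhesion molecules and a granzyme. Granule inhibitors of the serpin family and Gzmd and Gzme were among the lower ones, together with Rgs1, Zfp36l2, Tnfaip3, Tsc22d3 and Cxcr4, which are given above or below.

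Of 19 measured homing and residency genes, 3 were higher in p38KO (Cxcr6, Itga1 and Itgae) and 5 lower (among them Cxcr4, Itgam, Rgs1 and Rgs2), with a median of -0.32. Over all measured genes 1.44% were higher and 1.66% lower. Itgae, the αE chain of CD103, which binds E-cadherin (chr11:73090583-73147446), had 2 UMIs in vehicle, 1 in p38i and 59 in p38KO. These correspond to 2.74, 1.38 and 63.9 CPM, and the p38KO UMIs came from 12 cells. The log2 ratio to vehicle was 4.54, with an interval of 2.63 to 7.62. In CD8 T cells Itgae stood at 12.1, 18.5 and 182 CPM. Cxcr6, a chemokine receptor of tissue lymphocytes, stood at 53.4 CPM (38-73), 30.4 CPM (19-46) and 145 CPM (122-172) in NK cells, in 12, 13 and 33 cells. Itga1 stood at 114, 128 and 232 CPM, with a log2 ratio of 1.03 in p38KO. Cdh1, E-cadherin itself, stood at 12.3, 26.2 and 69.3 CPM in 9, 13 and 34 cells.

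Other homing and maturation genes were lower in p38KO. Cxcr4, the receptor for the bone marrow chemokine CXCL12, stood at 123, 44.2 and 28.1 CPM in NK cells, with log2 ratios to vehicle of -1.48 and -2.13. The early-stage maturation list held 3 lower genes of 14 measured in p38KO (among them Cd27 and Slamf6), none higher, with a median of -0.70. The late-stage list held 2 lower of 12, none higher, with a median of -0.28. In p38i these lists held 1 lower of 15 (Kit, median -0.28) and 2 lower of 12 (median -0.14), with none higher. Among all measured genes 1.66% were lower in p38KO and 1.5% in p38i. At full depth, NK cells with neither Cd27 nor Itgam made up 43.4% in vehicle, 50.4% in p38i and 60.7% in p38KO.

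Some other genes high in p38KO rested on few cells or are known from other cell types, and others were spread over many cells. Ly6a, the surface antigen Sca-1, stood at 17.8, 13.8 and 93.1 CPM, but 68.6% of its p38KO UMIs came from 1 cell. Its log2 ratio to vehicle was 2.39, and 0.01 when at least 2 partner genes were asked for. Mcpt1 and Mcpt2, mucosal mast cell proteases, were at 0 in vehicle and p38i and had 75 and 113 UMIs in p38KO. Against a floor of 3 UMIs in the vehicle library they were at least 19.8-fold and 29.8-fold higher, and 1 cell held 87.2% of both together. Igha, the immunoglobulin A heavy chain of plasma cells, had 2, 9 and 59 UMIs, spread over 26 cells in p38KO. Tpsb2 and Cpa3, other mast cell genes, stood at 48.7 and 36.8 CPM in p38KO against 0 and 0 CPM in vehicle, and the part of mast cell or plasma cell RNA was not tested. Prnp, the cellular prion protein, stood at 12.3, 19.3 and 69.3 CPM in 6, 9 and 26 NK cells. Swap70, an actin-binding exchange factor, stood at 16.4, 40.0 and 68.2 CPM in 10, 21 and 33 cells, so both genes were spread over more cells in p38KO. Apoe, an apolipoprotein of macrophages, stood at 69.8, 181 and 209 CPM, and a single cell held 60.8%, 87.0% and 33.7% of its UMIs.

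Among the secreted factors, Xcl1 and Ifng were highest in p38KO, while for Ifng the intervals of vehicle and p38i overlapped. Xcl1 (chr1:164931644-164935527) stood at 1108 CPM (1033-1187) in vehicle, 719 CPM (659-784) in p38i and 1838 CPM (1751-1927) in p38KO. The 3 intervals, which cover counting error and not the spread between cells or mice, did not overlap. The UMIs came from 47, 42 and 72 cells, and a single cell held 17.7%, 17.5% and 15.7% of them. The log2 ratios were -0.62 and 0.73 to vehicle and 1.35 between p38KO and p38i. Ifng, interferon-γ, stood at 34.2, 26.2 and 79.0 CPM, in 18, 17 and 31 cells, with a log2 ratio of 1.21 for p38KO against vehicle. Flt3l, the growth factor of dendritic cells, stood at 60.2, 42.8 and 102 CPM. Ccl5, which attracts T cells and myeloid cells, was ordered otherwise, at 5518, 4973 and 2898 CPM, with a log2 ratio of -0.93 in p38KO. The median NK cell held 42.5 Ccl5 UMIs per 10000 in vehicle, 33.4 in p38i and 8.39 in p38KO. No Ccl5 was counted in 23, 24 and 41 NK cells, and no Gzma in 30, 19 and 40. The NK cells were thus not uniform. A summed level can differ through the mix of cells or the level within them, which were not told apart. Of the secreted list, 0 of 7 measured genes passed the fold in p38i against vehicle (median -0.15). In p38KO 2 of 9 were higher (Ifng and Ccl1), none lower, with a median of 0.73, beside 1.44% higher and 1.66% lower among all measured genes. Ccl1 rested on 0, 2 and 4 cells.

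Perforin and granzymes are described with the promoters of the granzyme cluster on mouse chromosome 14. They are shown because neighbors in this cluster, Gzmb to Gzmg, differed between tumors in unlike ways. The 120 bases before each gene's start are given from RefSeq (GRCm38.p6), 5′ to 3′ on the gene's own minus strand. Capitals mark matches to the letters TGTGGT (RUNX), TGANTCA (AP-1) and TGACGTCA (CRE), searched on both strands.
Gzmb, chr14:56262335-56262454: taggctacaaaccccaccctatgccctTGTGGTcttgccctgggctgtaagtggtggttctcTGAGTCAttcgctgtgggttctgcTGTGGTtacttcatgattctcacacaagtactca
Gzmc, chr14:56234658-56234777: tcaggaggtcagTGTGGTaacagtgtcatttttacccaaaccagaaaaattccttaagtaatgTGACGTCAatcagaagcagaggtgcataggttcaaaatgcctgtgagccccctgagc
Gzmd, chr14:56132594-56132713: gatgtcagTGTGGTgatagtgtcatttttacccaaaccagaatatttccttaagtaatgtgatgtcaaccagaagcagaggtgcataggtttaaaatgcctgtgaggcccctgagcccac
Gzme, chr14:56120626-56120745: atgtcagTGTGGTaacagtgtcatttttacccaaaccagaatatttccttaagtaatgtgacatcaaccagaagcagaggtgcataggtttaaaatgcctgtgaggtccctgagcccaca
Gzmf, chr14:56211408-56211527: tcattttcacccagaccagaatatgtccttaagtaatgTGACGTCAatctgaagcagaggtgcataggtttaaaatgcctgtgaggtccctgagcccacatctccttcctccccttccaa
Gzmg, chr14:56159580-56159699: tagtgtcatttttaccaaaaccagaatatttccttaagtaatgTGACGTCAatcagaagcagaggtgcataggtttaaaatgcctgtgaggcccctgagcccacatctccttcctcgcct

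Gzmb carried 2 RUNX matches and 1 AP-1 match, Gzmc 1 RUNX and 1 CRE match, Gzmd and Gzme 1 RUNX match each, and Gzmf and Gzmg 1 CRE match each. A T-box motif, TCACACC, the core letters of sites for Eomes and T-bet, was found in none of the 6 windows. Over 32851 windows of the same length before gene starts, 6.72% held the RUNX letters, 3.41% the AP-1 letters, 1.49% the T-box letters and 1.24% the CRE letters. The matches describe the sequences and are not shown to be sites. The Gzmd and Gzme windows were 94.2% identical. The transcripts of Gzmd, Gzme, Gzmf and Gzmg were at least 83.1% identical to one another, and 82.4-87.9% identical over their last 300 bases, where reads of a 3′ assay fall, so UMIs may be split uncertainly within this group. Gzmc was 68.8-70.6% identical to them over the whole transcript.

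Gzma, Gzmb and Prf1 stood lower in p38KO than in vehicle and p38i, short of the fold against vehicle. Gzma, a tryptase-like granzyme, stood at 6340 CPM (6159-6525) in vehicle, 6951 CPM (6761-7146) in p38i and 4536 CPM (4399-4675) in p38KO. Gzmb, which cleaves caspases (chr14:56258838-56262260), stood at 1977 CPM (1876-2082), 2215 CPM (2108-2327) and 1082 CPM (1016-1151), and Prf1 at 1038, 1157 and 725 CPM. The log2 ratios of p38KO to vehicle were -0.48 for Gzma, -0.87 for Gzmb and -0.52 for Prf1, none of which reached 1. In the median NK cell Gzmb stood at 11.3, 9.07 and 5.51 UMIs per 10000 and Gzma at 88.4, 64.7 and 59.9. Both medians were lowest in p38KO, as were the summed levels. Between vehicle and p38i the order was turned, with lower medians but higher summed levels in p38i. In CD8 T cells Gzmb stood at 927, 516 and 503 CPM. Serpinb9, an inhibitor that shields the killer cell from its own granzyme B, stood at 407, 275 and 184 CPM in NK cells, with a log2 ratio of -1.14 in p38KO. Its relatives Serpinb6b (387, 258 and 131 CPM) and Serpinb9b (293, 178 and 106 CPM) were ordered in the same way. Tnfsf10, the death ligand TRAIL, stood at 67.1, 45.6 and 136 CPM, in 21, 19 and 48 cells, and was higher in p38KO than in vehicle by 1.02 on the log2 scale.

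Gzmc (chr14:56231441-56234656) stood at 2308 CPM (2199-2421) in vehicle, 2572 CPM (2456-2691) in p38i and 5777 CPM (5623-5934) in p38KO. It was detected in 25 of 113, 31 of 113 and 42 of 122 cells. The 3 intervals of its level, which cover counting error only, did not overlap, with p38KO far above the others. The log2 ratio of p38KO to vehicle was 1.32, and a single p38KO cell of 20582 UMIs held 2211 of the 5338 UMIs. Without the cell with the most Gzmc in each library the log2 ratio was 1.00, and the lowest value under any alternative was 0.17. In CD8 T cells Gzmc stood at 135, 6.16 and 14.3 CPM.

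Gzmd to Gzmg were present in few NK cells. Gzmd (chr14:56129556-56132608) stood at 263, 740 and 48.7 CPM in 10, 11 and 4 cells, and Gzme (chr14:56117626-56120625) at 97.2, 337 and 0 CPM in 10, 7 and 0 cells. Against a floor of 3 UMIs in the p38KO library, Gzme was at least 29.9-fold lower than in vehicle and at least 104-fold lower than in p38i. Gzmf had 28.7, 206 and 43.3 CPM in 3, 2 and 5 cells, and Gzmg 15.1, 87.0 and 0 CPM in 2, 1 and 0 cells. Summed, the 4 genes stood at 404 CPM (359-453), 1369 CPM (1285-1457) and 92.0 CPM (73.5-114) in 12, 11 and 7 cells. In p38i the deepest NK cell, with 35154 UMIs and 70 Ncr1 UMIs, held 609 of the 992 UMIs, that is 61.4%. At least 10 UMIs of the group were present in 8, 8 and 5 cells. The higher p38i level of Gzmd and Gzme was thus set by 1 cell, and without the top cell neither reached 1, whereas the low p38KO level of both reached 1 against vehicle under every alternative. Of 21 measured genes of the cytotoxic granule list 4 were higher in p38i (Gzmd, Gzme, Gzmf and Gzmg) and none lower, with a median of -0.20. In p38KO 2 of 20 were higher than vehicle (Gzmc and Tnfsf10) and 5 lower (Gzmd, Gzme, Serpinb6b, Serpinb9 and Serpinb9b), with a median of -0.28. All measured genes gave 0.921% higher and 1.5% lower in p38i and 1.44% and 1.66% in p38KO. All 10 granzymes together summed to 11042, 13134 and 11510 CPM.

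**Figure D5:**
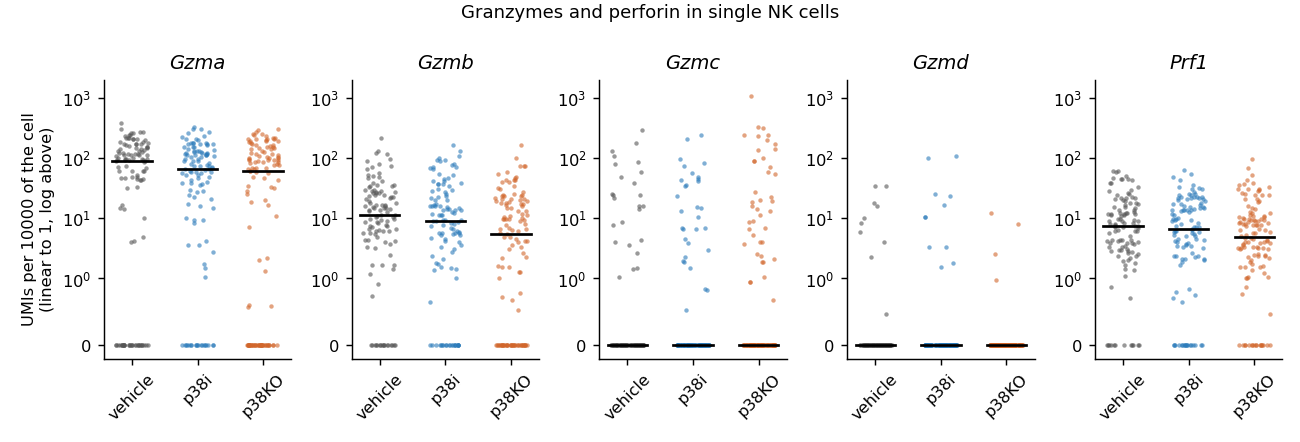
UMIs of Gzma, Gzmb, Gzmc, Gzmd and Prf1 per 10000 UMIs of the cell (y axis, linear to 1 and logarithmic above) in NK cells of vehicle, p38i and p38KO; each point is a cell and lines are medians. Gzma, Gzmb and Prf1 are found in most cells, Gzmc in 25, 31 and 42 cells and Gzmd in 10, 11 and 4.

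Few receptor genes passed the fold, which 0.921% of all measured genes passed upward and 1.5% downward in p38i, and 1.44% and 1.66% in p38KO. None of 21 measured activating receptors and adaptors passed the fold in p38i (median -0.17), and in p38KO 2 of 22 were lower (Slamf6 and Syk) and none higher (median -0.01). Klrd1, the CD94 chain, stood at 906, 871 and 923 CPM, and Klrk1, NKG2D, at 754, 577 and 696 CPM. None of 13 inhibitory receptors and regulators passed the fold in p38i (median -0.03). In p38KO 1 of 14 was higher, with a median of 0.04. It was Cish, a brake on interleukin-15 signals that is induced by them, at 53.4, 53.8 and 123 CPM. Klrc2, the activating NKG2C chain, stood at 329, 144 and 190 CPM, and Il12rb2, a chain of the interleukin-12 receptor, at 94.5, 40.0 and 35.7 CPM. These were the 2 genes of 26 measured in the NK identity list that were lower in p38i, with none higher and a median of -0.27. In p38KO Il12rb2 was the only one of 27 past the fold, and the median was -0.18. Of the cytokine receptors, 1 of 13 was higher in p38i (Csf2rb) and 2 lower (Il12rb2 and Kit), with a median of -0.15. Neutrophils held Csf2rb at 594, 615 and 707 CPM, against 11.0, 60.7 and 6.49 CPM in NK cells. In p38KO 1 of 11 was lower and none higher, with a median of -0.38. Ly49 receptors were thinly counted, with 3 measured in p38i and none past the fold, and 1 of 5 higher in p38KO (Klra4). The mice were BALB/c and the counts were made on mm10. Whether strain differences affect the counts of single Ly49 genes was not tested.

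Few lineage factors passed the fold. Tbx21, T-bet, stood at 94.5, 67.6 and 80.1 CPM. Of 19 measured transcription factors 1 was lower in p38i (Prdm1, median -0.21) and 2 in p38KO (Prdm1 and Nfil3, median -0.53), with none higher. Prdm1, the transcriptional repressor Blimp-1, which promotes terminal maturation, stood at 52.0, 19.3 and 20.6 CPM. Nfil3, needed early in NK development, stood at 84.9, 73.2 and 40.0 CPM, with neutrophils at 508, 459 and 449 CPM. Ahr, a factor of resident lymphocytes, stood at 82.1, 37.3 and 33.5 CPM. In the list of type 1 innate lymphoid cells and residency, 2 of 15 genes were lower in p38i (Ahr and Cd69) and none higher, with a median of -0.22. In p38KO 3 of 14 were higher (Itga1, Tnfsf10 and Cxcr6) and 1 lower (Ahr), with a median of -0.14. In the activation list 3 of 12 were lower in p38i (Cd69, Dusp5 and Tnfaip3, median -0.56) and 2 of 12 in p38KO (median -0.34), with none higher. These counts stand beside 0.921% higher and 1.5% lower genes over the whole p38i comparison and 1.44% and 1.66% over that of p38KO.

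Metabolic and interferon lists gave few genes past the fold. In p38KO 2 of 22 glycolysis and hypoxia genes were lower (Hif1a and Pfkp), none higher, with a median of -0.50, while 0 of 21 passed in p38i, with a median of 0.04. Hif1a, the oxygen-sensing factor, stood at 168, 109 and 71.4 CPM in NK cells and at 479, 469 and 534 CPM in neutrophils. Pfkp, a phosphofructokinase, stood at 201, 181 and 97.4 CPM. Mitochondrially encoded genes had medians of 0.12 and 0.49 in p38i and p38KO with none of 12 past the fold, beside the higher mitochondrial content of the p38KO library. Type I interferon-stimulated genes held 2 of 14 lower in p38i (Irf7 and Ifi27l2a) and none higher, with a median of -0.40. In p38KO 2 of 15 were higher (Isg20 and Ly6a) and 1 was lower, with a median of -0.26. Neutrophils held more of these transcripts, with the type I list at 9688, 5359 and 13617 CPM against 1453, 1078 and 1323 CPM in NK cells. Irf7 stood at 75.3, 30.4 and 55.2 CPM in NK cells and at 275, 156 and 393 CPM in neutrophils, and Ifi27l2a at 127, 53.8 and 44.4 CPM against 770.1, 487 and 1147 CPM. Isg20 stood at 405, 225 and 514 CPM and Gbp2 at 470.5, 366 and 575 CPM in neutrophils, and the part of neutrophil RNA was not tested. The interferon-γ list held 1 of 24 higher in p38i (Gbp2, median -0.08) and 0 of 21 past the fold in p38KO (median -0.01). None of 11 and 13 genes of the integrated stress list passed, with medians of -0.28 and -0.08. Over all measured genes the shares were 0.921% higher and 1.5% lower in p38i, 1.44% and 1.66% in p38KO.

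Set directly against each other, p38KO was higher than p38i in 68 of 4497 measured genes (1.51%) and lower in 58 (1.29%), with a median log2 ratio of 0.02. Without likely doublets 66 were higher and 40 lower, and with Cd3d, Cd3e and Cd3g all at 0 71 and 37. With the rule applied after thinning 27 were higher and 36 lower, and 13 of the 68 and 16 of the 58 were still called. The higher genes included residency and secreted transcripts. The p38KO library is shared with the comparison to vehicle, so genes high in both comparisons are not independent of each other. Cxcr6 was higher by 2.26 on the log2 scale, Hopx by 1.64 and Xcl1 by 1.35. Igflr1, a receptor of the TNF receptor family, stood at 71.2, 56.6 and 207 CPM in vehicle, p38i and p38KO, and Tsc22d1, a leucine zipper factor, at 52.0, 48.3 and 162 CPM. Tsc22d1 was detected in 21, 24 and 55 NK cells and was low in CD8 T cells, at 9.34, 4.31 and 3.82 CPM. The lower genes included Zbtb32, a zinc finger factor of proliferating NK cells, at 31.5, 59.4 and 10.8 CPM, and Fcrl6, a receptor for MHC class II, at 30.1, 62.1 and 18.4 CPM. Plac8 stood at 398, 610 and 213 CPM, with a log2 ratio of p38KO to p38i of -1.52 that was -0.84 at its smallest under the alternatives. Cenpa, the centromeric histone, stood at 56.1, 110 and 43.3 CPM. Gzmb was lower in p38KO by 1.03 on the log2 scale, and its ratio did not reach 1 without the cell with the most Gzmb in each library. The homing and residency list had 3 of 19 genes higher and 1 lower (median -0.0031), and the secreted list 4 of 9 higher (Ifng, Xcl1, Ccl1 and Flt3l) and none lower (median 0.27).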

How the data were processed

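The authors' processing with Cell Ranger 6.0.0 (per the file headers, on mm10 per the submitters' notes, which also list Seurat 5) gave deposited counts: whole UMI counts for each of 32285 genes and each cell barcode, 1 matrix per library, with 21675352, 25996832 and 25997636 UMIs in vehicle, p38i and p38KO. From these, UMIs of the NK cells were summed per gene and library. CPM carry exact Poisson and shares exact Clopper-Pearson 95% intervals, and log2 ratios exact conditional intervals of the 2 counts, with 0.5 in place of a count of 0. All of them cover counting error only, and the floor for a library at 0 was 3 UMIs. With 1 library per group no p-value was computed. Genes with at least 50 UMIs over both libraries were measured. Named were the 10 higher and 10 lower genes past a log2 ratio of 1 ranked by the interval bound nearest 0, list members past the fold, and genes of known role, where the ranked ones had to be found in at least 5 NK cells of the higher library and not be held by neutrophils at over 4 times the NK level. Members, the 29 gene lists and rules were chosen with earlier results of these data known. No doublet caller was run. Cells of over 20000 UMIs or over 1% of UMIs from myeloid genes were left out as an alternative, and the other alternatives are named below. Gene positions are from GENCODE M21 (32235 of 32285 gene IDs matched) and promoters from RefSeq. Python 3.11.15, numpy 2.4.6, scipy 1.17.1 and pandas 2.3.3 were used, and the fold rule was tested on simulated data. Some genes of the lists are not reported here.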

Additional observations from a re-analysis of the deposited data

Results flagged for a closer look

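In 13 comparisons a gene passed 1 on the log2 scale upward in NK cells and downward in CD8 T cells of the same libraries, or the reverse. With 1 library per group the difference between the cell types was not tested, and several values rest on a single cell.

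For p38i against vehicle, Gzme gave 1.79 in NK cells and -3.30 in CD8 T cells, Gzmd 1.49 and -1.38, Gzmf 2.84 and -2.93, and Gzmg 2.53 and, with p38i CD8 T cells at 0 UMIs and 3 UMIs as the floor, -5.64. In vehicle CD8 T cells a single cell held 84.1% of the Gzme, 84.9% of the Gzmd, 92.3% of the Gzmf and all of the Gzmg UMIs. Cxcl10, a chemokine induced by interferon-γ, gave 2.36 in NK cells and -3.43 in CD8 T cells, and 1 cell held 98.0% of its p38i NK UMIs.

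For p38KO against vehicle, Gzmc gave 1.32 in NK cells and -3.24 in CD8 T cells, where 1 vehicle cell held 89.3% of the UMIs. Ifng gave 1.21 and -1.17, AA467197, which neutrophils also express, 1.26 and -1.20, and Ifi27l2a, an interferon-stimulated gene, -1.52 and 1.05.

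For p38KO against p38i, Xcl1 gave 1.35 in NK cells and -1.02 in CD8 T cells, Ifng 1.59 and -1.52, Egr1, an immediate-early factor, 1.40 and -1.33, and Cxcl10 -3.70 and 4.26. For Xcl1 the cell with the most UMIs held 15.7% of them in p38KO and 17.5% in p38i NK cells, so that value was spread over more cells than those of Cxcl10.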

How the results depend on the processing

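Depth and cell number limit every value: each library held 113 to 122 NK cells, so genes in few cells can rest on 1 of them, and no replicate measures the spread between mice. No paired analysis was possible because each group has 1 library and no test was run. The NK share became 2.12%, 1.5% and 2.02% in vehicle, p38i and p38KO when the rule followed thinning to 1500 UMIs, 1.89% in p38i and 2.42% in p38KO with no filter on cells, and 2.62% in p38KO when at least 2 partner genes were asked for. Counts of genes past the fold were 100, 140 and 126 (p38i against vehicle, p38KO against vehicle, p38KO against p38i). They were 423, 514 and 443 from at least 20 UMIs and 38, 61 and 41 from at least 100. With the rule after thinning they were 77 and 63 for the p38KO comparisons with vehicle and p38i, and with a mean over cells 212 for p38KO against vehicle. In p38i against vehicle, Gzme gave -1.02 and Gzmd -0.73 with the rule after thinning, Gzmd -0.024 and Apoe -0.34 without likely doublets, and Apoe -0.22 without the cell with the most Apoe UMIs in each library, an alternative chosen after seeing the data. Apoe is itself among the myeloid genes by which likely doublets were set apart. Ly6a in p38KO against p38i gave -0.93 with the rule after thinning. The cause was not tested. Of 48 answers to comparisons 33 and of 480 single-gene values 410 moved by less than the limits set. Without the top cell of each gene, 10 of 10 genes named as lower in p38i and 10 of 10 and 10 of 10 named as higher and lower in p38KO still reached 1 against vehicle, and 7 of 10 named as higher in p38i. Under every alternative, 9 of 10 lower and 1 of 10 higher genes reached 1 in p38i, and 10 of 10 lower and 8 of 10 higher genes in p38KO, where Ly6a and Gzmc did not. In p38KO against p38i they were 9 of 10 higher (not Ly6a) and 5 of 10 lower (not Plac8, Hist1h1b, Mki67, Gzmb and Gadd45g).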
